A study of Homo sapiens with 6 samples.

Results

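TXNIP, the alpha-arrestins ARRDC1 to ARRDC5 and the glucose-sensing transcription factors MondoA (gene MLXIP) and ChREBP (gene MLXIPL) are described here in human neuroblastoma cells. The members were chosen by gene name, 8 of the 35130 names in the deposited tables, with earlier results of these data known. RNA-seq had been carried out on SK-N-BE(2) cells, an established neuroblastoma line with amplified MYCN that came from bone marrow. Cells in DMEM/F12 with fetal bovine serum received 1 µM NEN or the solvent DMSO for 24 h, with no genetic change in either group, with 3 libraries in each group, called biological replicates in the labels. The labels name NEN only by these letters. In published neuroblastoma studies they stand for niclosamide ethanolamine, which uncouples mitochondrial respiration, and this is given as background.

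MondoA and ChREBP form dimers with MLX, respond to glucose 6-phosphate and related sugar phosphates, and bind carbohydrate response elements, pairs of E-box-like sequences in promoters. TXNIP and ARRDC4 are the best-known direct targets of MondoA. Alpha-arrestins are adaptors with an arrestin fold, and most carry tail motifs that recruit ubiquitin ligases of the NEDD4 family to membrane proteins. TXNIP also binds thioredoxin and promotes the removal of glucose transporters from the cell surface.

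The promoters of TXNIP and ARRDC4 are printed because these are the members that fell, and because a paired sequence of the kind MondoA binds can be looked for in them. Both come from RefSeq on GRCh38.p14 and run from 250 bases before the annotated start through its first 50 bases, 5′ to 3′ on the gene's strand. Capitals mark matches on either strand to 5 motifs. These are the E-box, spelled CACGTG, the half-site repeat, spelled CACGNNNNNNNCACG, the inverted half-site pair, spelled CACGNNNNNNNNNCGTG, the CCAAT box, and the forkhead site, spelled TGTTTAC. A match on the other strand shows as the reverse complement, the E-box reads the same on both strands, and no matches overlap in the printed promoters. In the repeat and the pair only the half-sites are in capitals. The TXNIP promoter lies at chr1:145996530-145996829 on the minus strand and the ARRDC4 promoter at chr15:97960453-97960752 on the plus strand.
TXNIP: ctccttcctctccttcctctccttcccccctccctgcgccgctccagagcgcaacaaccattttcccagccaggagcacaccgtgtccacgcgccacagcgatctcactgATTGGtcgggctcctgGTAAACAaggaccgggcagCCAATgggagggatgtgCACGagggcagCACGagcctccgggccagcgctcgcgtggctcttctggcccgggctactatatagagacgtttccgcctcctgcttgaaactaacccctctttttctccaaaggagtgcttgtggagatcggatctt
ARRDC4: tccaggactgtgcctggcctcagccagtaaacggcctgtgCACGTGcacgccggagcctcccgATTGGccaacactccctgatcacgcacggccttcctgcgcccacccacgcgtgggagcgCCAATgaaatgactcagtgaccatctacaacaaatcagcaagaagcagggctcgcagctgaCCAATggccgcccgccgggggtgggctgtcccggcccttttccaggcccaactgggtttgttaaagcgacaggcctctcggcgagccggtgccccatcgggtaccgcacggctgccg

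The TXNIP promoter held 1 half-site repeat from -88 to -74, counted with the first base of the gene as +1. It lies between a CCAAT box that begins at -105 and the start. A forkhead site from -124 to -118 and a further CCAAT box from -140 stood upstream. The ARRDC4 promoter held no half-site repeat in these letters, and had 1 E-box from -210 to -205 and 3 CCAAT boxes. The E-box occurred in 7.26% of the 35116 promoters of the same length, the half-site repeat in 0.609%, the inverted pair in 0.242%, the CCAAT box in 34.6% and the forkhead site in 3.42%. Among the other members, MLXIP held an inverted pair from -181 to -165, and a second promoter of ARRDC3 held a forkhead site. ARRDC1, ARRDC3 and MLXIP and a second promoter of ARRDC2 held 1 CCAAT box each. MLXIPL, the first promoter of ARRDC2 and a second promoter of TXNIP held none of the 5 motifs. RefSeq promoters were matched for 7 of the 8 members, the exception being ARRDC5. The matches are of letters, and binding was not measured.

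Levels are TPM (transcript abundances) scaled for transcript length and library total, so levels of different genes can be compared. TPM carries no read counts and the depth is unknown. Every difference between the groups is NEN less DMSO, taken on log2(TPM + 1), a scale that makes the changes of low genes look smaller. These are given ± SE with p-values from limma, adjusted by the Benjamini-Hochberg method over the 12576 genes whose mean reached 1 TPM, and the threshold was 0.05. The p-values set each difference against the spread between the libraries within the groups, which limma moderates with that of all genes tested. In bulk RNA, fewer cells expressing a gene and less of its RNA per cell cannot be told apart.

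NEN-treated cells held less ARRDC4 and TXNIP mRNA and more ARRDC2 and MLXIP mRNA than DMSO-treated cells. ARRDC4 fell to 0.476 of its DMSO level and TXNIP to 0.855. MLXIP stood at 1.30 and ARRDC2 at 2.07 of the DMSO level. Of the 8 members 6 reached the minimum level for a test, 4 passed the threshold (2 rose and 2 fell), and the same number had groups that did not overlap. Of all genes tested, 30.0% passed the threshold, 13.5% as higher and 16.5% as lower in NEN, and 46.8% had groups that did not overlap. The median difference was 0.20 over the 6 members tested and -0.02 over all genes tested. The fall of ARRDC4 passed the threshold under each of 15 other ways of fitting the data that set no minimum size of the difference, while the calls of TXNIP, MLXIP and ARRDC2 depended on the fit.

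**Figure D1:**
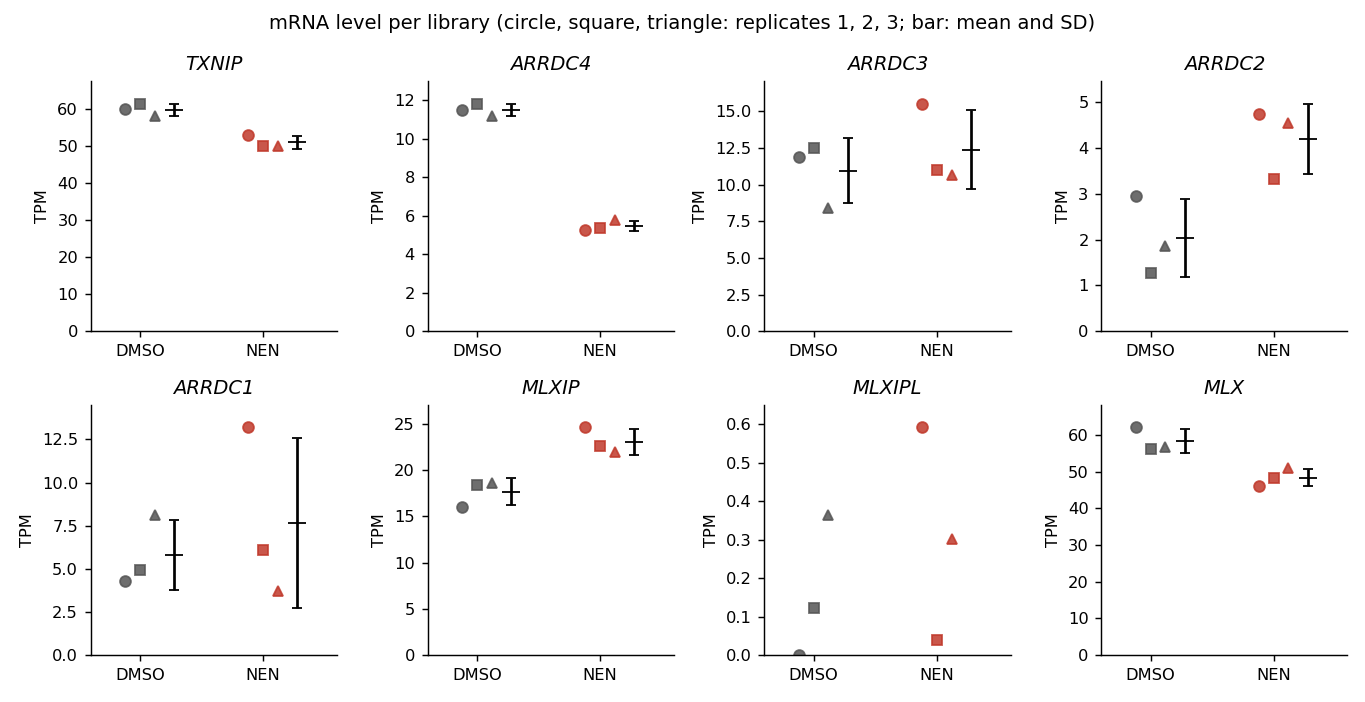
TPM of 7 members and MLX (vertical axes, each from 0) in the DMSO and NEN libraries, with circle, square and triangle for replicates 1, 2 and 3 and a bar for the mean and SD (n = 3; no bar for MLXIPL, which is listed at 0 in 1 library). The groups of TXNIP, ARRDC4, ARRDC2, MLXIP and MLX do not overlap, and ARRDC5 is left out because it is listed at 0 in all 6 libraries.

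MLXIP, the gene of MondoA, stood at 16.0, 18.4 and 18.6 TPM in DMSO replicates 1 to 3 and at 24.6, 22.7 and 21.9 TPM in NEN replicates 1 to 3. Every NEN library was above every DMSO library. MLXIP rose by 0.37 ± 0.10 (limma adjusted p = 0.0273; 95% interval 0.14 to 0.59). Without any 1 library the difference stayed between 0.30 and 0.40, and the adjusted p in limma was 0.0457 without DMSO replicate 3 and between 0.0533 and 0.0869 in the other 5 fits.

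MLXIPL, which encodes ChREBP and is known for its role in liver, was near 0. It was listed at 0, 0.121 and 0.364 TPM in DMSO and at 0.592, 0.038 and 0.301 TPM in NEN, and the groups overlapped. It was too low to be tested. MLX, the shared dimer partner, is not a member but bears on both. It stood at 62.1, 56.1 and 56.8 TPM in DMSO and at 46.2, 48.2 and 50.9 TPM in NEN. All NEN libraries were lower, and MLX fell by 0.26 ± 0.07 on the log2 scale (limma adjusted p = 0.0314), a call that was lost on leaving out any 1 library (adjusted p = 0.051 to 0.0967). The ratio of MLX to MLXIP was 3.88, 3.05 and 3.05 in DMSO and 1.87, 2.13 and 2.32 in NEN, with no overlap.

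TXNIP, the best-studied alpha-arrestin and the most abundant member, stood at 59.95, 61.4 and 58.1 TPM in DMSO and at 53.2, 50.2 and 50.03 TPM in NEN. The 3 NEN libraries lay below the 3 DMSO libraries, with a gap that is small beside the level. TXNIP fell by 0.22 ± 0.06 (limma adjusted p = 0.0333; 95% interval -0.37 to -0.08), or 14.5% of the mean. Leaving out any 1 library kept the direction (-0.25 to -0.20) and ended the call (limma adjusted p = 0.0542 to 0.106). Of all genes tested, 30.5% had a lower difference than TXNIP.

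ARRDC4, the closest companion of TXNIP as a MondoA target, stood at 11.5, 11.8 and 11.2 TPM in DMSO and at 5.26, 5.37 and 5.78 TPM in NEN. The groups were far apart against their spread, with means of 11.5 ± 0.32 and 5.47 ± 0.27 TPM (SD, n = 3). ARRDC4 fell by 0.95 ± 0.11 (limma adjusted p = 0.00122; 95% interval -1.20 to -0.70). Only 283 of the genes tested, 2.25%, had a lower difference. Over these 15 alternatives the difference ranged from -1.06 to -0.66 and the adjusted p from 0.000895 to 0.0102.

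ARRDC2, a lower-expressed alpha-arrestin, stood at 2.96, 1.28 and 1.85 TPM in DMSO and at 4.75, 3.34 and 4.54 TPM in NEN. The groups did not overlap, but DMSO replicate 1 was close to NEN replicate 2. ARRDC2 rose by 0.81 ± 0.24 (limma adjusted p = 0.0425; 95% interval 0.24 to 1.38). The call was lost without any 1 library other than DMSO replicate 1 (adjusted p = 0.0583 to 0.122).

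ARRDC3, an alpha-arrestin known for directing the beta2-adrenergic receptor and integrin beta4 to ubiquitination, stood at 11.9, 12.5 and 8.43 TPM in DMSO and at 15.5, 11.01 and 10.7 TPM in NEN. The groups overlapped, with NEN replicate 1 above the rest. Its difference was 0.16 ± 0.19 (limma adjusted p = 0.554), with a 95% interval from -0.28 to 0.61. Leaving out DMSO replicate 3 took it to 0.0027 and leaving out NEN replicate 1 to 0.0043, while it was 0.32 under a length and GC correction, and did not pass the threshold in any of these fits.

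ARRDC1, which drives the budding of vesicles from the plasma membrane with the help of the ESCRT machinery, stood at 4.29, 4.95 and 8.10 TPM in DMSO and at 13.2, 6.10 and 3.72 TPM in NEN. Its highest and lowest values were both NEN libraries. The difference was 0.24 ± 0.40 (limma adjusted p = 0.683), with a 95% interval from -0.69 to 1.18, and it was -0.19 without NEN replicate 1. RefSeq lists an antisense neighbour, ARRDC1-AS1, and whether the libraries kept strand is not given in the sources used here, so the reads of the pair may not be separable. ARRDC5 was listed at 0 in all 6 libraries.

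**Figure D2:**
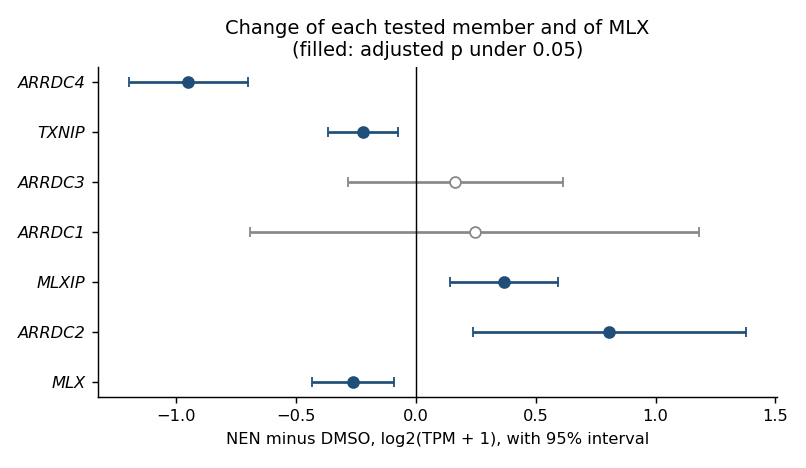
Difference between NEN and DMSO in log2(TPM + 1) (horizontal axis) for the 6 members tested and MLX, filled where the adjusted p was under 0.05, with 95% intervals from limma. The interval of ARRDC4 lies from -1.20 to -0.70, apart from that of TXNIP at -0.37 to -0.08, and those of ARRDC3 and ARRDC1 span 0.

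By level in DMSO, TXNIP came first, then MLXIP, then ARRDC4 and ARRDC3, whose ranges overlapped, then ARRDC1, ARRDC2, MLXIPL and ARRDC5. In NEN the order kept TXNIP and MLXIP at the top, and ARRDC3, ARRDC1 and ARRDC4 followed, with overlapping ranges between ARRDC3 and ARRDC1 and between ARRDC1 and ARRDC4. The summed level of the alpha-arrestins was 90.6, 92.0 and 87.7 TPM in DMSO and 91.9, 76.0 and 74.7 TPM in NEN. NEN replicate 1, which held the most ARRDC1 and ARRDC3, was within the DMSO range, and the other NEN libraries were below. TXNIP made up 66.2%, 66.8% and 66.3% of that sum in DMSO and 57.9%, 66.0% and 66.9% in NEN, so its share overlapped. The share of ARRDC4 was 12.7%, 12.8% and 12.8% in DMSO and 5.73%, 7.06% and 7.73% in NEN, with no overlap.

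The 2 known MondoA targets among the members fell by different amounts. The ratio of TXNIP to ARRDC4 was 5.22, 5.20 and 5.20 in DMSO and 10.1, 9.35 and 8.66 in NEN. The ratio was nearly the same in the 3 DMSO libraries and higher in each NEN library. The difference of ARRDC4 minus that of TXNIP was -0.73, and between -0.83 and -0.63 over the 9 pairs of 1 NEN and 1 DMSO library. Each of the other 5 members tested was compared with TXNIP in this way by a two-sided exact permutation test over the 6 libraries, in which 3 against 3 cannot give a p below 0.1. ARRDC4, MLXIP, ARRDC3 and ARRDC2 reached that limit (exact permutation p = 0.1, adjusted over the 5 comparisons 0.125). The difference for MLXIP was 0.59, for ARRDC3 0.39 and for ARRDC2 1.03. For ARRDC1 it was 0.47, and it ran from -0.73 to 1.59 over the pairs (exact permutation p = 0.6).

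ARRDC3 to ARRDC4 was 1.04, 1.06 and 0.754 in DMSO and 2.95, 2.05 and 1.85 in NEN. The pair thus went from about equal levels to more ARRDC3 in every NEN library. TXN encodes thioredoxin, the protein that TXNIP binds. By TPM, TXN mRNA was 6.52, 5.89 and 6.21 times as abundant as TXNIP mRNA in DMSO and 6.94, 7.13 and 7.26 times in NEN. All NEN ratios were higher than all DMSO ratios.

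**Figure D3:**
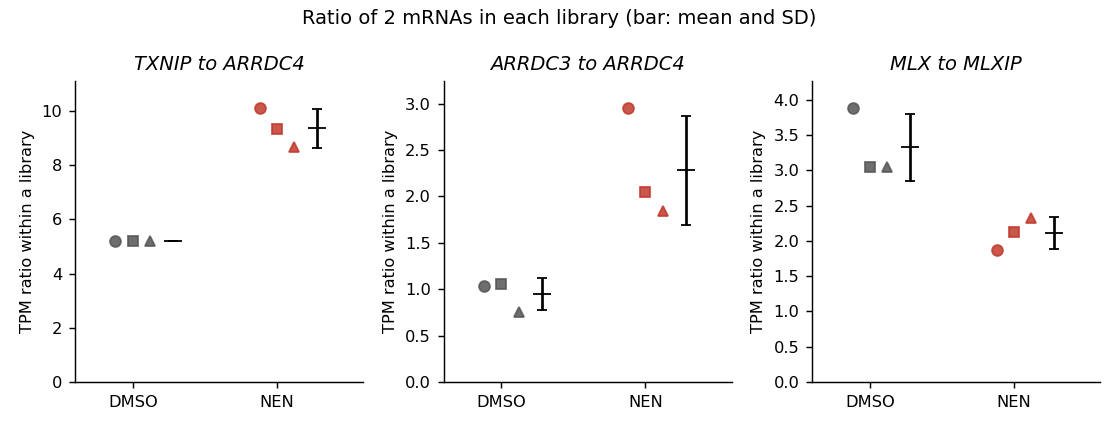
Ratios of TPM between pairs of genes in each library (vertical axes, each from 0), with circle, square and triangle for replicates 1, 2 and 3 and a bar for the mean and SD (n = 3). The TXNIP to ARRDC4 ratio goes from 5.20 to 5.22 in DMSO to 8.66 to 10.1 in NEN, and none of the 3 ratios overlaps between the groups.

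By the distance between centred log2 profiles over the 6 libraries, among genes averaging 10 TPM or more, the 5 genes nearest to TXNIP were XRN2, CDC42SE1, HSPD1, AASDHPPT and FKBP5, at distances of 0.048 to 0.064. HSPD1, a mitochondrial chaperonin, stood at 1840, 1958 and 1826 TPM in DMSO and at 1637, 1534 and 1541 TPM in NEN. FKBP5 had a difference of -0.18 and did not pass the threshold (limma adjusted p = 0.0717). Those nearest to ARRDC4 included SFPQ, PRMT6, EXO1 and TRMT6, at distances of 0.097 to 0.116. All 4 stood lower in each NEN library. SFPQ, a nuclear RNA-binding protein, went from 364 ± 12 to 190.2 ± 5.2 TPM (SD, n = 3), a fall of 0.93 ± 0.05 (limma adjusted p = 0.000215). The profiles share the 6 libraries, and with so few the measure reflects mainly the size of the difference between groups.

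Known or proposed targets of MondoA and ChREBP did not move in 1 direction. Of 17 tested (leaving the members aside), 4 rose, 1 fell and 12 did not pass the threshold, with a median difference of 0.17. Of all genes tested, 30.0% passed, 13.5% as higher and 16.5% as lower in NEN, and the same shares apply to the lists below. The number of targets past the threshold is near the share of all genes, so it does not set the targets apart. RGS16, a regulator of G protein signalling, stood at 246, 253 and 270.0 TPM in DMSO and at 119.9, 128.7 and 122.7 TPM in NEN. The groups were far apart, and RGS16 fell by 1.04 ± 0.06 (limma adjusted p = 0.000215). FASN, the fatty acid synthase, stood at 163.9, 154.6 and 162.1 TPM in DMSO and at 275, 246 and 252 TPM in NEN. It rose by 0.68 ± 0.06 (limma adjusted p = 0.000573). BHLHE40, a circadian and hypoxia-responsive repressor, rose by 0.94 ± 0.18 from 1.27 ± 0.23 TPM (limma adjusted p = 0.00851). The desaturase gene SCD and the hexokinase gene HK2 rose by 0.17 ± 0.05 and 0.22 ± 0.07 (limma adjusted p = 0.0453 and 0.0455), and the number of targets that rose was 2 without DMSO replicate 2 or any 1 NEN library. PFKFB3, which makes fructose 2,6-bisphosphate, had a difference of -0.25 (limma adjusted p = 0.176).

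The genes that make or use glucose 6-phosphate, the signal that MondoA senses, gave 3 rises and 1 fall among 9 tested, with a median of 0.22. Rises made up 13.5% and falls 16.5% of all genes tested. HK1, the main hexokinase here by level, rose by 0.28 ± 0.05 to 193.6 ± 1.5 TPM (limma adjusted p = 0.00712). PGM1, which links glucose 6-phosphate to glycogen, rose by 0.59 ± 0.08 (limma adjusted p = 0.00239). HK3 stood at 5.21, 5.67 and 5.05 TPM in DMSO and at 0.967, 2.12 and 1.20 TPM in NEN. This low-expressed hexokinase fell by 1.40 ± 0.21 (limma adjusted p = 0.00343), and 2 genes of the list fell without DMSO replicate 1. HK2 stood at 32.9, 31.1 and 32.4 TPM in DMSO and at 38.1, 37.5 and 37.0 TPM in NEN, and its call was lost without any 1 library (adjusted p = 0.0553 to 0.12).

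In the network of factors that dimerize with MAX or MLX, 6 of 10 tested rose and 1, MLX, fell, with a median of 0.42. Over all genes tested, 13.5% rose and 16.5% fell. MXI1, a repressor that pairs with MAX, stood at 12.1, 15.9 and 12.8 TPM in DMSO and at 33.7, 26.5 and 26.4 TPM in NEN and rose by 1.03 ± 0.14 (limma adjusted p = 0.00237). MXD4, of the same repressor family, rose by 0.57 ± 0.08 (limma adjusted p = 0.00276). MYCN, the amplified oncogene of this line, went from 1163 ± 104 to 1455 ± 66 TPM (SD, n = 3), a rise of 0.33 ± 0.08 (limma adjusted p = 0.0169). MYCL rose by 1.01 ± 0.25 from 0.539 to 2.10 TPM (limma adjusted p = 0.0221). It reached the minimum of 1 TPM only through its NEN libraries, so the filter favoured a rise of this gene, which is among the 6. The call of MYCN was lost without NEN replicate 1 (limma adjusted p = 0.0632) and in limma without its trend and robust settings (0.0503). The call of MYCL was lost in 3 of 6 fits that left out a library, and the number of network genes that rose was 2 without NEN replicate 1 and 3 without NEN replicate 2. MAX, the partner of the MYC proteins, had a difference of -0.25 (limma adjusted p = 0.155).

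**Figure D4:**
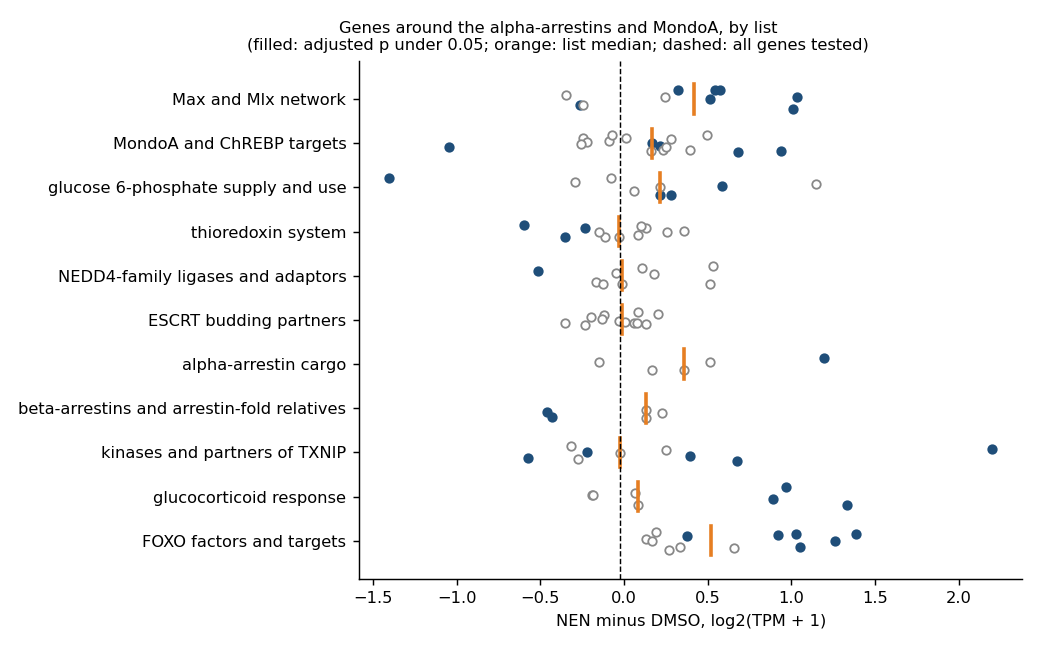
Differences between NEN and DMSO on the log2(TPM + 1) scale (horizontal axis) for the tested genes of 11 lists, filled where the adjusted p in limma was under 0.05, with the list median in orange and the median of all genes tested (-0.02) as a dashed line. DDIT4 is the point farthest to the right at 2.20, and the targets of MondoA and ChREBP lie on both sides of 0.

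The thioredoxin system, on which TXNIP acts, gave 3 falls and no rise among 11 tested in limma (1 was higher at an unadjusted p under 0.05), with a median of -0.03. Falls made up 16.5% and rises 13.5% of all genes tested. TXN itself stood at 391, 362 and 361 TPM in DMSO and at 369, 358 and 363 TPM in NEN, with overlap. Its difference was -0.03 ± 0.05 (limma adjusted p = 0.705), and the sign turned under quantile normalization and under a length and GC correction. TXNRD1, the cytosolic reductase that recharges thioredoxin, stood at 150.9, 156.7 and 146.7 TPM in DMSO and at 102.6, 100.7 and 95.7 TPM in NEN. It fell by 0.60 ± 0.06 (limma adjusted p = 0.000675). The peroxiredoxins PRDX1 and PRDX3, which thioredoxins reduce, fell by 0.35 ± 0.05 and 0.23 ± 0.05 (limma adjusted p = 0.00262 and 0.0137). The call of PRDX3 was lost without DMSO replicate 2 (limma adjusted p = 0.0515), without NEN replicate 3 (0.0592), without the trend and robust settings (0.058) and under the length and GC correction (-0.13, 0.13). Without DMSO replicate 1, 2 genes of the list rose.

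Among the ubiquitin ligases of the NEDD4 family and their adaptors, 1 of 9 tested fell and none rose in limma (2 were higher at an unadjusted p under 0.05), with a median of -0.01. NEDD4 stood at 16.9, 21.4 and 19.7 TPM in DMSO and at 12.2, 12.8 and 14.8 TPM in NEN. It fell by 0.51 ± 0.12 (limma adjusted p = 0.0195), a call lost in 4 of 6 fits that left out a library (adjusted p up to 0.0643). NEDD4L was 8.35, 5.74 and 7.64 TPM in DMSO and 13.4, 9.99 and 9.33 TPM in NEN, with a difference of 0.53 ± 0.18 (limma adjusted p = 0.0631), and it passed the threshold under the length and GC correction (0.61, adjusted p = 0.0356). ITCH, the ligase that ubiquitinates TXNIP, had a difference of -0.01 ± 0.23 (limma adjusted p = 0.972), and its sign turned under median-ratio scaling and under the length and GC correction. Of the 12 tested ESCRT genes, the budding partners of ARRDC1, none passed the threshold in limma and 0 had an unadjusted p under 0.05, with a median of -0.01.

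Among known cargo of the alpha-arrestins, 1 of 5 tested rose and none fell in limma (0 were lower at an unadjusted p under 0.05), with a median of 0.36. SLC2A3, the glucose transporter GLUT3, stood at 3.27, 3.17 and 4.19 TPM in DMSO and at 9.52, 9.17 and 9.43 TPM in NEN. It rose by 1.20 ± 0.14 (limma adjusted p = 0.00126), and 2 genes of the list rose without DMSO replicate 2. SLC2A1, the glucose transporter GLUT1 that TXNIP removes from the membrane, stood at 83.4, 120.5 and 115.2 TPM in DMSO and at 142, 133 and 129 TPM in NEN. The groups did not overlap, DMSO replicate 1 was lower than the rest, and the difference was 0.36 ± 0.13 (limma adjusted p = 0.086). It was 0.19 without DMSO replicate 1 (limma adjusted p = 0.0577), and it passed the threshold with quantile normalization (0.43, adjusted p = 0.0462).

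The relatives with an arrestin fold gave 2 falls and no rise among 5 tested in limma (1 was higher at an unadjusted p under 0.05), with a median of 0.13. ARRB1, which encodes beta-arrestin 1, stood at 71.1, 70.8 and 73.6 TPM in DMSO and at 51.3, 51.3 and 53.1 TPM in NEN. It fell by 0.46 ± 0.06 (limma adjusted p = 0.00177). VPS26A, a retromer subunit with the same fold, fell by 0.43 ± 0.08 (limma adjusted p = 0.0082), and its call was lost under the length and GC correction. ARRB2 had a difference of 0.13 ± 0.08 (limma adjusted p = 0.247).

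Of 9 tested kinases and partners of TXNIP, 3 rose and 2 fell (13.5% and 16.5% of all genes tested), with a median of -0.03. DDIT4 (REDD1), an inhibitor of mTORC1 that binds TXNIP, stood at 23.3, 34.7 and 35.1 TPM in DMSO and at 148.7, 140.0 and 143.8 TPM in NEN. It rose by 2.20 ± 0.15 (limma adjusted p = 0.000295). Of the subunits of AMPK, the kinase that phosphorylates TXNIP, PRKAB2 rose by 0.39 ± 0.10 and PRKAA1 fell by 0.57 ± 0.17 (limma adjusted p = 0.0281 and 0.04). AKT2 fell by 0.22 (limma adjusted p = 0.0406). Its call was lost with the replicate block and without DMSO replicate 1 or 2 or NEN replicate 1 or 3. The call of PRKAB2 was lost in 5 and that of PRKAA1 in 4 of 6 fits that left out a library, and the number that fell was 0 to 1 in these fits. Of the 6 genes of the inflammasome, which TXNIP is known to engage through NLRP3, only NLRP1 was high enough to be tested, and it did not pass the threshold in limma.

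Glucocorticoids are known to raise TXNIP in other tissues, and FOXO factors are known to act on its promoter. Among 7 tested genes of the glucocorticoid response, 3 rose and none fell in limma (1 was lower at an unadjusted p under 0.05), with a median of 0.09. KLF9 stood at 1.86, 1.87 and 1.67 TPM in DMSO and at 6.58, 5.59 and 6.05 TPM in NEN, and it rose by 1.34 ± 0.15 (limma adjusted p = 0.00111). TSC22D3 (GILZ) and the clock gene PER1 rose by 0.97 ± 0.17 and 0.89 ± 0.20 (limma adjusted p = 0.0064 and 0.0151). Of the 4 that did not pass the threshold, FKBP5 was lower in every NEN library (-0.18, limma adjusted p = 0.0717). The differences of NR3C1, the glucocorticoid receptor gene, SGK1 and DUSP1 were -0.19, 0.07 and 0.09. Among 12 tested FOXO factors and targets, 6 rose and none fell in limma (0 were lower at an unadjusted p under 0.05), with a median of 0.52. Of all genes tested, 13.5% rose and 16.5% fell past the threshold. Whether glucocorticoid or FOXO signalling acts on TXNIP in these cells was not tested. CCNG2, an atypical cyclin, stood at 5.68, 6.03 and 5.97 TPM in DMSO and at 16.1, 17.7 and 17.3 TPM in NEN, and it rose by 1.39 ± 0.10 (limma adjusted p = 0.000323). KLF15, PIK3IP1 and FOXO4 rose by 1.26, 1.03 and 0.92 (limma adjusted p = 0.00117, 0.00219 and 0.00301).

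The libraries held the defining genes of neuroblastoma. All 10 identity genes were tested, of which 6 rose and 1 fell, beside 13.5% and 16.5% of all genes tested. PHOX2A and TH rose by 0.80 and 0.82 (limma adjusted p = 0.000295 and 0.00324). DBH rose by 0.41 (limma adjusted p = 0.00223), and 2 identity genes fell without DMSO replicate 1. Of 15 markers of blood, stroma, endothelium, epithelium and liver, 9 were under 1 TPM in all libraries, among them MPO and HBB at 0. None of the 5 tested passed the threshold in limma or had an unadjusted p under 0.05. The summed level of the 15 markers was 12.9 to 15.6 TPM in DMSO and 7.69 to 18.1 TPM in NEN, with overlap.

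**Figure D5:**
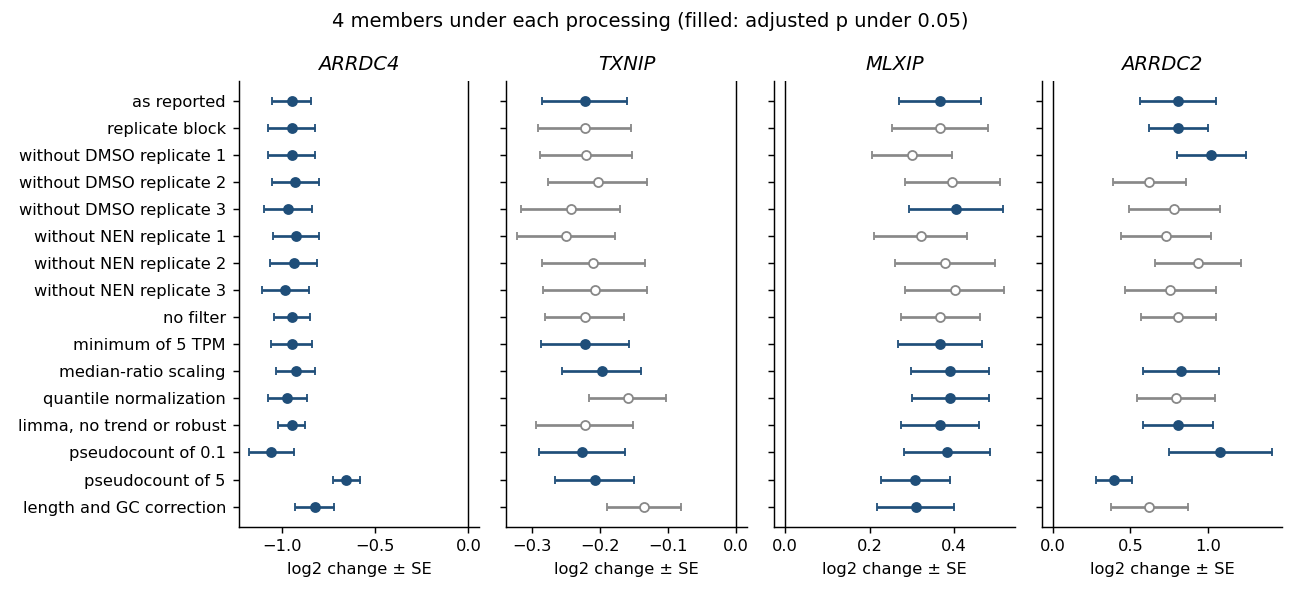
Difference between NEN and DMSO in log2(TPM + 1) (horizontal axis) ± SE of ARRDC4, TXNIP, MLXIP and ARRDC2 under the reported fit and the alternatives (1 row each, panels on separate scales, ARRDC2 not tested at a minimum of 5 TPM), filled where the adjusted p in limma was under 0.05. ARRDC4 stays between -1.06 and -0.66 and is past the threshold in each fit, and TXNIP is not past it in any of the 6 fits without 1 library.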

How the data were processed

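The 6 RNA-seq libraries, 3 per treatment, were grouped by the treatment in the labels. They were made from Trizol-extracted total RNA by polyA capture or rRNA removal, with the choice left unsaid, per the labels' protocols. The values deposited by the authors are TPM per gene name, from kallisto with the hg19 build, per the submitters' processing notes. Their versions were not given in the sources used here. Listed genes sum to 929054 to 933500 TPM per library, with 17285 to 18041 genes above 0. There are 27 date-like names and 2 repeated names.

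Genes whose mean reached 1 TPM (12576) were tested on log2(TPM + 1) with limma 3.58.1 (R 4.3.3), with group alone and its trend and robust settings. Differences in log2(TPM + 1) between TXNIP and each other member tested were compared by exact permutation in Python 3.11.15 with scipy 1.17.1. The TPM ratios were given no test. The limma test was checked on simulated data. Figures were drawn with matplotlib 3.10.9. The members, the 14 gene lists (155 of 156 symbols matched) and the tests were chosen with earlier results of these data known. Several genes belong to more than 1 list.

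The rule for named genes takes every member, up to 4 genes per list with the smallest adjusted p past the threshold, MLX, TXN, ITCH, NEDD4L, HK2, SLC2A1 and DDIT4, and the 5 genes nearest to TXNIP and to the member with the largest difference. MAX, PFKFB3, ARRB2, AKT2, NLRP1, NR3C1, SGK1, DUSP1, MPO and HBB were picked once their values had been seen. The results of 3 genes that the rule takes are not reported here. The alternatives comprised leaving out each library, a replicate block, no filter or a minimum of 5 TPM, median-ratio scaling, quantile normalization, plain limma, pseudocounts of 0.1 and 5, a minimum difference of 1, and, added after the data were seen, a length and GC correction (loess, span 0.3, degree 1, for 11741 genes). Coordinates are given only for RefSeq promoters on GRCh38.p14, not the build of the files.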

Additional observations from a re-analysis of the deposited data

How the results depend on the processing

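ARRDC4 kept its direction and its side of the threshold in limma under the 15 alternatives that set no minimum size of the difference. Of the 4 members past the threshold, 2 were past it with a replicate block, with quantile normalization and with the length and GC correction, 1 with no filter, 0 with a minimum log2 fold change of 1 in size, and 1 to 2 on leaving out a library. With that minimum, 356 of 3773 genes remained past the threshold. The block took the number of genes past the threshold to 2977. The labels do not say whether a replicate number marks a shared culture or day. The deviations of same-numbered libraries correlated at 0.012, -0.0076 and -0.028, which cannot exclude such a pairing.

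In limma, TXNIP missed the threshold under the length and GC correction (-0.14, adjusted p = 0.0999), quantile normalization (-0.16, 0.0707), no filter (-0.22, 0.0552), plain settings (-0.22, 0.0662) and the replicate block (-0.22, 0.0707), and it ranged from -0.25 to -0.20 on leaving out a library. MLXIP was not past it with the replicate block (0.37, adjusted p = 0.0718) or no filter (0.37, 0.0516), and ranged from 0.30 to 0.40 on leaving out a library. ARRDC2 was not past it with no filter (0.81, 0.0827), quantile normalization (0.79, 0.0507) or the length and GC correction (0.62, 0.0995), ranged from 0.62 to 1.02 on leaving out a library, and was not tested at a minimum of 5 TPM. ARRDC1 ranged from -0.19 to 0.61 and ARRDC3 from 0.0027 to 0.26 on leaving out a library. ITCH was 0.0090 with median-ratio scaling, 0.11 with the length and GC correction and -0.24 to 0.17 on leaving out a library. TXN was 0.0032 with quantile normalization, 0.089 with the length and GC correction and -0.049 to 0.0084 on leaving out a library. The cause was not tested, beyond there being fewer samples where a library is left out. Of 49 other genes named by the rule, 31 kept direction and side under every alternative run, and the median of all genes moved by at most 0.028 under the other scalings.

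TPM carries no counts, so no counting error can be given for low genes such as MLXIPL, ARRDC5 and HK3. The comparison rests on 1 line, 1 dose, 1 time and 3 libraries a group. MondoA and TXNIP protein and glucose were not analysed here.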
